A study of Mus musculus with 13 samples.

Results

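Lgr5, Lgr6, Lrig1, Cd34, Plet1 and Krt79 are genes whose transcripts or proteins mark stem and progenitor cells of the hair follicle and its junctional zone, the part of the upper follicle next to the sebaceous gland. They were chosen by symbol from the gene list of the count matrices and are 6 of its 27998 gene identifiers, each found once. LGR5 and LGR6 are receptors for R-spondins, secreted proteins that raise the response of a cell to Wnt signals. LRIG1 is a membrane protein that dampens signalling by receptors of the epidermal growth factor family, and CD34 is a sialomucin of blood vessel, haematopoietic and adult follicle bulge cells. PLET1 is a cell surface protein first described in placenta, and KRT79 is a type II keratin of the infundibulum, the upper follicle and the sebaceous gland. In mature skin CD34 marks the bulge, and LGR5 the bulge and its germ, below the sebaceous gland. LGR6 and LRIG1 mark the isthmus above the bulge, and PLET1 and KRT79 the junctional zone and upper follicle. All of them are read here while the first follicles form, before a resting bulge exists.

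The data are single-cell RNA-seq counts of C57BL/6 mouse skin, from 13 droplet libraries (10x Genomics Chromium, which reads the 3′ end of transcripts). Whole back skin was taken at embryonic day E14.5 and E16.5, and epidermis separated from dermis at birth (P0). At each age there were 2 libraries of wild-type (WT) mice and 2 of littermates without Grhl3 (Grhl3-/-, here KO) in all their cells, which develop spina bifida. GRHL3 is a transcription factor of the Grainyhead-like family that is needed for the late differentiation of the epidermis. One more WT library at P0, made with an earlier version of the reagents (Chromium v1), has no replicate and was not tested. Per the methods, 1 male and 1 female of each genotype and age were used. The paper calls the 2 libraries of a group biological replicates, so they are taken as separate mice.

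The matrices hold 97363 cell barcodes, and 86507 cells passed the limits of the methods, 5058 to 9157 per library. Libraries held 49245953 to 107038146 UMIs (unique molecular identifiers, random barcodes by which each captured RNA molecule is counted once), with a median of 7448 to 9976 UMIs per kept cell. No pair of libraries shared more than 114 barcodes, or 1.572% of the smaller library. Transcripts of Xist and of Y-linked genes did not match 1 male and 1 female in every group. All 5 libraries of P0 and both KO libraries of E14.5 read as male, and both WT libraries of E16.5 as female, so sex and age cannot be told apart between the WT libraries of E16.5 and P0, and a fit with sex as a term draws on the other embryonic libraries. The first WT library of E14.5 also held neural cells, and the second KO library of that age held more epithelium than the other 3. Grhl3 itself was at 15.8 and 16.7 CPM (UMIs of a gene scaled to the same total in every sum) in WT cells of the interfollicular epidermis (IFE) at P0 and at 2.36 and 7.23 CPM in KO cells. Its log2 fold change was -2.09 ± 0.35 (SE) with an adjusted p of 6.81e-04 at P0. At E14.5 it was -0.65 (adjusted p = 0.517) and at E16.5 -0.94 (adjusted p = 0.26), with 54.5 and 65.5 against 38.6 and 38.3 CPM, and 18.4 and 22.0 against 12.9 and 8.47 CPM. In hair follicle-like cells of P0, on which the main genotype comparison rests, Grhl3 was at 4.42 and 6.45 against 3.09 and 3.01 CPM and did not pass (-0.78 ± 0.30, adjusted p = 0.0527). The levels in IFE-like cells were lower in both KO libraries at each age, and the 3′ reads do not show which part of the gene is deleted.

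Cells were clustered within each age and named from marker genes, with the ending -like since the study's own cell labels were not used here. Hair follicle-like cells numbered 30, 53, 39 and 113 at E14.5 in WT replicates 1 and 2 and KO replicates 1 and 2, in that order, which is kept for all lists of values below. They numbered 437, 392, 190 and 256 at E16.5, and 3082, 3057, 4557 and 3905 at P0. At E14.5 all of them fell in a single follicle germ and matrix-like cluster. At E16.5 they were germ and matrix-like or outer root sheath-like, the outer layer that continues the basal epidermis down the follicle. At P0 inner root sheath-like cells, which line the growing hair, were present as well. No cluster met the naming rule for an upper follicle-like class at any age, so a comparison planned for such cells could not be run. Beside the named classes, P0 clusters led by Pthlh, Timp3, Dct, Krt6a and Cd74 stayed unnamed.

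All 6 genes are protein coding, and their places are given on GRCm38. Lgr5 lies on the minus strand of chromosome 10 from 115450311 to 115587780, and Lgr6 on the minus strand of chromosome 1 from 134983301 to 135105276. Lrig1 is on the minus strand of chromosome 6 from 94604529 to 94700158, and Cd34 on the plus strand of chromosome 1 from 194938819 to 194961279. Plet1 is on the plus strand of chromosome 9 from 50494525 to 50505482. Krt79 is on the minus strand of chromosome 15 from 101929332 to 101940324, within the cluster of type II keratin genes.

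Plet1 and Krt79 are the members whose levels differed most clearly between KO and WT, so the 250 bases before their start sites are shown, 5′ to 3′ on the strand of the gene, from RefSeq on GRCm38.p6. Capitals mark the letters TATAAA, the core of a TATA box.
Plet1, chr9:50494275-50494524, plus strand: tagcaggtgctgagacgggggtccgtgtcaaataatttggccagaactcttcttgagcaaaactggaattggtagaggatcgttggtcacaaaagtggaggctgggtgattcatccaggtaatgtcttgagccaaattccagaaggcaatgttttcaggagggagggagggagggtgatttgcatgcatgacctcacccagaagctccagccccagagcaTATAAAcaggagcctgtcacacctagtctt
Krt79, chr15:101940325-101940574, minus strand: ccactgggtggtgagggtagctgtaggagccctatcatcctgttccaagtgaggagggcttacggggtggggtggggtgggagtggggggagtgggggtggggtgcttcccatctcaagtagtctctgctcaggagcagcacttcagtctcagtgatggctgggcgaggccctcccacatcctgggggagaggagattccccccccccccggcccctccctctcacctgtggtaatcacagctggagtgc

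In Plet1 the TATAAA letters begin 30 bases before the start, and 7.59% of 32851 mouse windows of that length hold them on the strand of the gene. The windows of 5 members, Lgr6, Lrig1, Cd34, Plet1 and Krt79, were searched, and only that of Plet1 held TATAAA. None of the 5 held AACCGGTT, the palindromic site known for Grainyhead factors, or the looser AACCNGTT, which includes it, on either strand. Those letters are present in 0.116% and 1.79% of all windows. A match or its absence describes these 250 bases alone.

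In WT hair follicle-like cells, transcripts of Lgr5 and Krt79 appeared between E14.5 and E16.5, and 5 members were higher at P0 than at E16.5. Lgr6 and Lrig1 were already present in the germ-like cells of E14.5. Cd34, by contrast, was a gene of fibroblast-like and endothelial-like cells at every embryonic age and was nearly absent from the epithelium at P0. Levels are given as CPM of the UMIs summed over the cells of a class in a library, and are compared between samples for 1 gene, not between genes. The plot of levels by age shows them for each library.

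**Figure D1:**
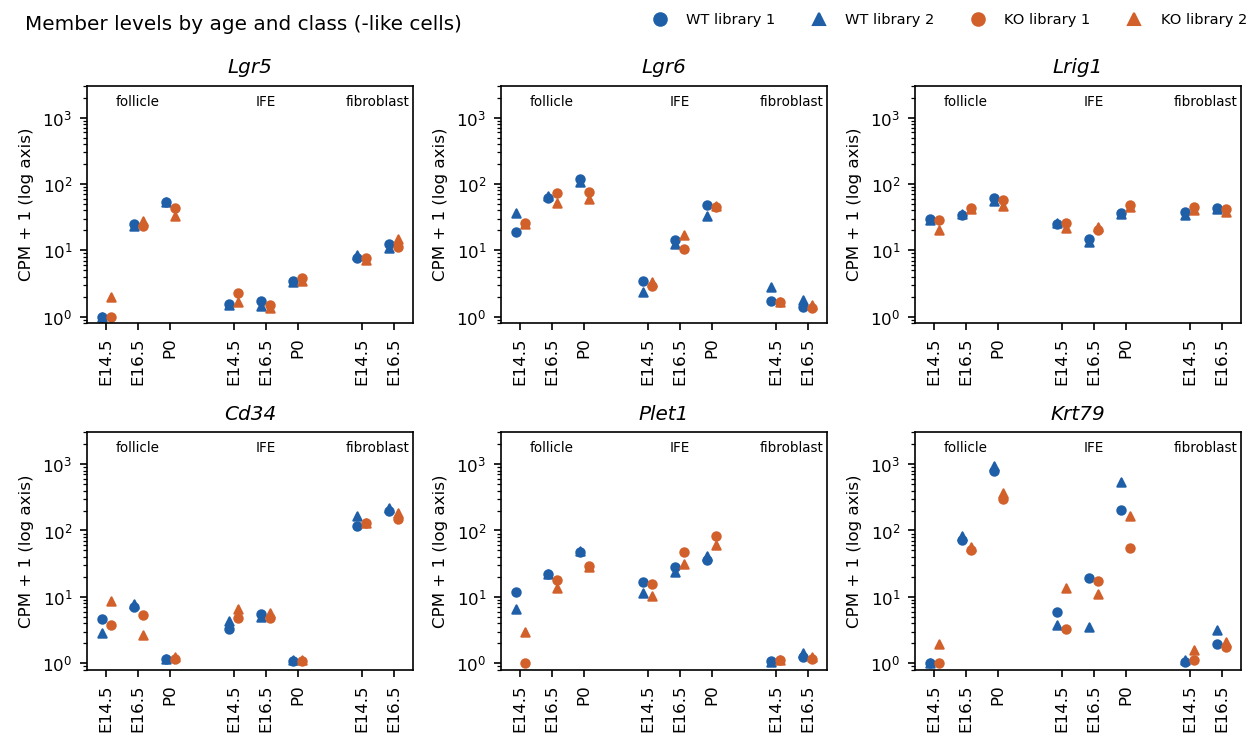
Levels of the 6 genes (CPM + 1, log axis) in hair follicle-like cells (follicle) and IFE-like cells at E14.5, E16.5 and P0, and in fibroblast-like cells at the 2 embryonic ages. Each point is 1 library, blue for WT and orange for KO, with a circle for replicate 1 and a triangle for replicate 2. Krt79 climbs from 0 in both WT libraries at E14.5 to 777 and 951 CPM at P0 in follicle-like cells, or 203 and 229 CPM without the Alox12e-led cluster, while a Krt79-rich cluster of E16.5 is not in the pool. Cd34 lies above 100 CPM only in fibroblast-like cells.

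Lgr5 had no UMI in the 30 and 53 WT hair follicle-like cells of E14.5. At E16.5 it was at 24.0 and 22.1 CPM in WT (148 UMIs in all), at least 6.35-fold above the 3.64 CPM that 3 UMIs over the E14.5 WT cells would give. All follicle-like cells of E14.5 were germ and matrix-like, and in germ and matrix-like cells of E16.5 alone Lgr5 was still at 0 in both WT libraries, so the step lay in outer root sheath-like cells. Over all follicle-like cells it reached 52.8 and 52.9 CPM at P0, on 3326 UMIs. Both steps passed the test across all genes (edgeR quasi-likelihood test, Benjamini-Hochberg adjustment over all genes, threshold 0.05). The adjusted p was 9.94e-04 for E16.5 against E14.5, where it became 0.0627 without WT replicate 2 of E14.5. From E16.5 to P0 the log2 fold change was 1.24 ± 0.18 (adjusted p = 3.73e-05). Of all genes tested, 6.58% passed between E14.5 and E16.5 and 52.0% between E16.5 and P0, so a change was common at the later step. Whole skin was taken at E16.5 and separated epidermis at P0. Dissection, cell preparation and age cannot be told apart at that step, for any gene.

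Krt79 had no UMI in the WT follicle-like cells of E14.5 and was at 69.7 and 80.4 CPM at E16.5, at least 20.6-fold above the floor, with an adjusted p of 2.99e-06. In germ and matrix-like cells of E16.5 alone it was at 7.58 and 5.69 CPM, on 11 and 8 UMIs, so most of that step lay in outer root sheath-like cells too. At P0 it was at 777 and 951 CPM, a log2 fold change of 3.57 ± 0.15 from E16.5 (adjusted p = 8.68e-11). The pools of these ages differ in make-up, since a cluster led by Alox12e and rich in Krt79 counted as follicle-like at P0, while a Krt79-rich cluster of E16.5 with Alox12e among its leading genes was unnamed and left out. Without the Alox12e-led cluster Krt79 was at 203 and 229 CPM at P0, 3.03-fold over E16.5 (log2 fold change 1.60 ± 0.12, adjusted p = 6.09e-08), and the other 5 members passed this step as before, in a fit that called 5409 of 10819 genes. The WT libraries of successive ages did not overlap.

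Lgr6 was at 17.8 and 34.9 CPM at E14.5, 60.7 and 64.8 at E16.5 and 117 and 106 at P0 in the same WT cells. The first step had a log2 fold change of 1.10 ± 0.31 (adjusted p = 0.0414) and was lost without any 1 of the 4 WT libraries, with adjusted p from 0.0767 to 0.224. The second was 0.88 ± 0.16 (adjusted p = 1.99e-04). Plet1 was at 10.7 and 5.52, then 21.3 and 20.8, then 46.8 and 48.6 CPM. Its first step was 1.51 ± 0.44 with an adjusted p of 0.0509, short of the threshold, which it passed with sex as a term (0.0377) or no filter on low counts (0.0435). Its second step was 1.23 ± 0.16 (adjusted p = 9.60e-06). In germ and matrix-like cells alone, the Plet1 step from E14.5 to E16.5 passed (2.20, adjusted p = 0.00836) and that from E16.5 to P0 did not (0.12, adjusted p = 0.616).

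Lrig1 was even before birth, at 28.5 and 27.6 CPM at E14.5 and 33.6 and 34.8 CPM at E16.5 (log2 fold change 0.27, adjusted p = 0.693), and stood at 59.8 and 54.3 CPM at P0. The later step was 0.78 ± 0.15 (adjusted p = 3.54e-04). With sex as a term, which then rests on the embryonic libraries, the rises from E16.5 to P0 of Lgr6, Lrig1 and Plet1 no longer passed (adjusted p = 0.166, 0.091 and 0.18). Those of Lgr5 and Krt79 still passed under that term.

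Cd34 fell from 6.01 and 6.84 CPM in WT follicle-like cells at E16.5 to 0.175 and 0.145 CPM at P0, a log2 fold change of -5.21 ± 0.55 (adjusted p = 1.11e-06), while the step from E14.5 did not pass (1.37, adjusted p = 0.508). Melanocyte-like cells, a type that should not transcribe follicle genes, held 16 and 15.6 CPM of Cd34 at E16.5, so the follicle-like level of that age was no higher than theirs. The dermis was in the embryonic samples and not in those of P0, so its removal and age cannot be told apart here. Among cells of E16.5 thinned to 3000 UMIs each, 2.36% and 2.06% of WT follicle-like cells and 1.39% and 3.57% of melanocyte-like cells held a Cd34 transcript. The median depths before thinning were 7119 and 7371.5 UMIs in the first and 6196 and 5508 in the second. Both shares lie in the same range, and the part of background in the follicle-like transcripts was not tested.

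Within the follicle at E16.5, Lgr5 and Krt79 were found in outer root sheath-like cells, and Plet1 in germ and matrix-like cells. Lgr5 was at 42.6, 40.9, 36.5 and 41.7 CPM in outer root sheath-like cells against 0, 0, 0 and 1.48 CPM in germ and matrix-like cells. Krt79 was at 118, 144, 80.0 and 87.0 CPM against 7.58, 5.69, 3.25 and 1.48 CPM. The libraries of these classes did not overlap for either gene. Plet1 had the opposite order, with 11.7, 10.8, 5.06 and 5.22 CPM in outer root sheath-like and 33.8, 32.7, 35.8 and 25.1 CPM in germ and matrix-like cells. Lgr6 was close in both, at 55.9, 57.7, 71.9 and 44.3 CPM and at 66.8, 73.2, 73.2 and 63.5 CPM. Differences between classes are descriptions, since clusters were formed from these same cells.

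Among E16.5 cells outside these classes, an unnamed epithelial cluster held 2735 CPM of Krt79 over 155 cells. Its leading genes included Retnlg, Lyz2 and S100a8, which neutrophils express, beside Alox12e, a lipoxygenase gene of keratinocytes, and Krt17. These cells also held 52.4 CPM of Plet1 and 28.0 CPM of Lrig1, and 4.43 CPM of Lgr5. At E14.5 the only cells with much Krt79 were 25 periderm-like cells, the transient outer layer of embryonic skin. They held 233 Krt79 UMIs or 760 CPM, 29 of them in KO replicate 1 and 204 in KO replicate 2, and the WT libraries gave 1 such cell each, so the genotypes could not be compared.

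In WT IFE-like cells Lgr6 rose at both steps. It was at 2.50 and 1.37 CPM at E14.5, 13.1 and 11.3 CPM at E16.5 and 47.9 and 31.8 CPM at P0, with log2 fold changes of 2.89 ± 0.35 (adjusted p = 2.31e-04) and 1.79 ± 0.22 (adjusted p = 3.53e-05). Lrig1 fell from 24.2 and 24.5 CPM to 13.9 and 12.4 CPM between E14.5 and E16.5, by 0.74 on the log2 scale (SE 0.13, adjusted p = 0.00282), and rose to 35.4 and 34.0 CPM at P0 (1.49 ± 0.12, adjusted p = 2.64e-06). Of the 6 genes, Lgr6, Lrig1 and Plet1 passed between E14.5 and E16.5, where 18.8% of all genes did, and Lgr5 (0.23, adjusted p = 0.875) and Cd34 (0.74, 0.143) did not. Between E16.5 and P0 all 6 passed, where 57.6% of all genes did, 5 of them upward and Cd34 downward.

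Plet1 in WT IFE-like cells was at 15.6 and 10.3 CPM at E14.5, 27.4 and 23.0 CPM at E16.5 and 35.1 and 39.8 CPM at P0. Both steps passed (1.15 ± 0.29, adjusted p = 0.0187, and 0.67 ± 0.25, adjusted p = 0.0368). The first was lost without WT replicate 2 of E14.5 (adjusted p = 0.208) or WT replicate 1 of E16.5 (0.0873), and it had the other sign, -0.40 (adjusted p = 0.33), in IFE differentiated-like cells alone. The second was lost without either WT library of E16.5 (0.069 without replicate 1 and 0.197 without replicate 2) or WT replicate 2 of P0 (0.149), and was 0.0029 with sex as a term.

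Krt79 in WT IFE-like cells was scattered before birth, at 5.01 and 2.74 CPM at E14.5 and at 18.0 and 2.50 CPM at E16.5, and its change did not pass (adjusted p = 0.395). At P0 it was at 204 and 532 CPM, 5.35 ± 0.86 above E16.5 (adjusted p = 2.76e-04, and 0.0561 with sex as a term). T cell-like cells of those libraries, which should lack Krt79, held 213 and 132 CPM, while melanocyte-like cells held less than IFE-like cells in both. Lgr5 stayed at or under 2.89 CPM in IFE-like cells of every library. Its change from E16.5 to P0 passed (2.15 ± 0.39, adjusted p = 6.33e-04, and 0.181 with sex as a term), but at P0 its level of 2.45 and 2.32 CPM was no higher than the 2.90 and 2.54 CPM in melanocyte-like cells.

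In fibroblast-like cells of the embryonic libraries, Cd34 rose from 114 and 167 CPM in WT at E14.5 to 194 and 217 CPM at E16.5 (log2 fold change 0.71 ± 0.13, adjusted p = 0.00305). Endothelial-like cells held more, 525 and 509 CPM and then 424 and 486 CPM in WT. Lgr5 in fibroblast-like cells went from 6.70 and 7.55 CPM to 11.6 and 9.92 CPM (0.76 ± 0.16, adjusted p = 0.00535, and 0.0528 without WT replicate 1 of E16.5). Lrig1 went from 36.4 and 32.6 CPM to 43.0 and 41.2 CPM (0.45 ± 0.10, adjusted p = 0.00881), which was lost without WT replicate 2 of E14.5 (0.0566) or WT replicate 1 of E16.5 (0.0667). Of all genes, 38.0% passed this comparison. Krt79 passed too, on 1 to 51 UMIs per library, Lgr6 did not (-0.99, adjusted p = 0.13), and Plet1 was too low to be tested there.

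At P0 the 5 epithelial members differed in the named class where they were highest. Lgr5 and Lrig1 peaked in outer root sheath-like cells, and Lgr6 in germ and matrix-like cells. Krt79 peaked in sebaceous-like cells and in the Alox12e-led cluster, which the naming rule placed in the inner root sheath-like class. Plet1 was spread over the follicle and the IFE and was highest in IFE basal-like cells of both KO libraries. The plot of levels by class at P0 shows this for each library.

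**Figure D2:**
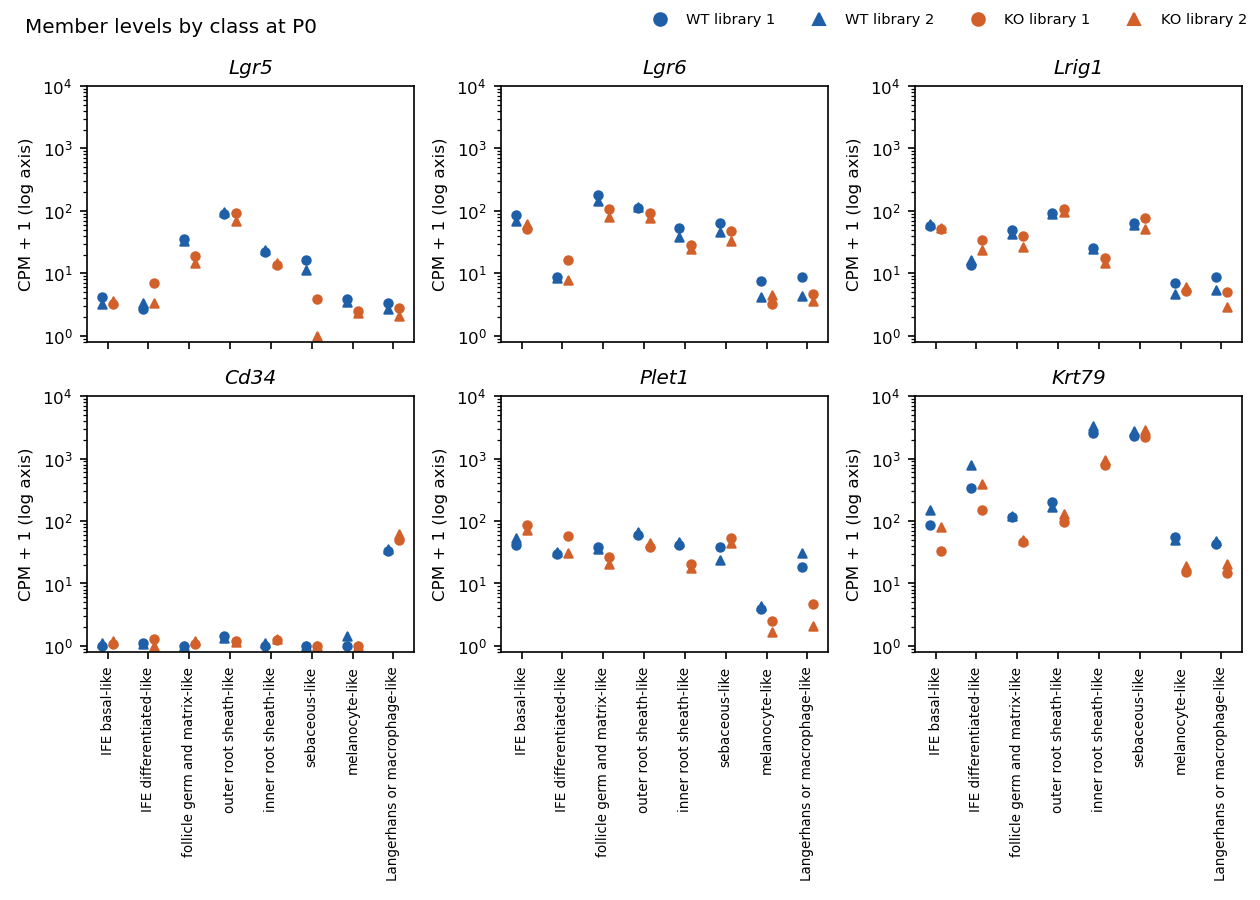
Levels of the 6 genes (CPM + 1, log axis) at P0 in the named epithelial classes and in melanocyte-like and Langerhans or macrophage-like cells. Each point is 1 of the 4 tested libraries, blue for WT and orange for KO. Krt79 exceeds 2000 CPM in sebaceous-like cells of all 4 libraries, and among the classes plotted Cd34 is above 1 CPM only in Langerhans or macrophage-like cells.

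Lgr5 was at 87.5, 95.9, 92.5 and 66.7 CPM in outer root sheath-like cells of P0, and in germ and matrix-like cells at 34.2, 32.0, 18.0 and 13.6 CPM. In inner root sheath-like cells it was at 21.0, 22.8, 12.5 and 13.6 CPM. The outer root sheath-like values lay above the others in all 4 libraries. The unnamed Timp3-led cluster, whose other leading genes include Igfbp7 and Tpm1, also held much Lgr5, at 110, 108, 75.5 and 68.6 CPM. Among cells thinned to 3000 UMIs, 21.3%, 21.8%, 22.0% and 16.8% of outer root sheath-like cells held an Lgr5 transcript. In melanocyte-like cells the shares were 0.508%, 1.16%, 0.867% and 0.848%. Median depths at P0 before thinning were 7324.5 to 10717 UMIs in follicle-like and 5322 to 6576.5 in melanocyte-like cells.

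Lgr6 was at 176, 146, 104 and 77.9 CPM in germ and matrix-like cells and at 110, 112, 92.2 and 75.0 CPM in outer root sheath-like cells. The order held in all 4 libraries, but in KO replicate 2 the classes differed by little. IFE basal-like cells held 85.9, 67.3, 50.9 and 60.0 CPM of Lgr6, and IFE differentiated-like cells 7.80, 7.30, 15.2 and 6.89 CPM. Of thinned germ and matrix-like cells, 38.3%, 34.3%, 26.3% and 20.2% held a transcript, against 1.86%, 0.723%, 0.520% and 1.02% of melanocyte-like cells.

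Lrig1 was at 90.9, 89.5, 108 and 95.8 CPM in outer root sheath-like cells, and higher still, at 128, 139, 155 and 175 CPM, in the Pthlh-led cluster. Pthlh codes for a parathyroid hormone-related protein of the epidermis, and the cluster is also led by Slco2a1, Fst and Igfbp4. The same cells held 122, 121, 140 and 103 CPM of Lgr6, 64.9, 86.1, 120 and 110 CPM of Plet1 and 744, 544, 404 and 739 CPM of Krt79. Lgr5 was at 24.3, 15.1, 21.0 and 22.9 CPM there. Sebaceous-like cells also held these members, with 62.2, 45.7, 46.5 and 31.4 CPM of Lgr6 and 37.1, 22.8, 52.1 and 44.0 CPM of Plet1.

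Plet1 was at 59.1, 65.1, 37.2 and 44.1 CPM in outer root sheath-like cells and 40.8, 53.0, 85.5 and 70.8 CPM in IFE basal-like cells. Its class of highest level therefore differed between the genotypes, outer root sheath-like in both WT libraries and IFE basal-like in both KO libraries among these classes. The shares of thinned cells with a transcript were 16.9%, 19.2%, 10.5% and 12% in the first class and 14%, 17.4%, 25% and 17.7% in the second. In melanocyte-like cells they were 1.01%, 0.723%, 0.173% and 0.170%.

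Krt79 was at 2278, 2782, 2219 and 2892 CPM in sebaceous-like cells, of which there were 131, 83, 39 and 26. In inner root sheath-like cells it was at 2541, 3289, 776 and 939 CPM. Most of the latter came from a cluster led by Alox12e, with 6832, 7824, 3905 and 4135 CPM. Its place in the inner root sheath-like class rests on the naming rule. Whether its cells belong to the inner root sheath or to the upper follicle was not tested. Of the other 3 clusters of that class, the 1 led by Krt71 held 1450, 2003, 581 and 601 CPM, and the other two at most 167 CPM. An unnamed cluster led by Dct and Ptgds, with the melanocyte genes Pmel and Mlana and the upper follicle gene Cst6 among its leading genes, held 3436, 6160, 2213 and 1467 CPM. At least 96.15% of thinned sebaceous-like cells in each library held a Krt79 transcript.

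Krt79 was also found in cells that should lack it, among them 62, 95, 135 and 136 T cell-like cells. Melanocyte-like cells held 55.3, 48.1, 14.2 and 18.2 CPM and Langerhans or macrophage-like cells 41.7, 47.2, 14 and 19.5 CPM. Of thinned melanocyte-like cells 12.9%, 12.3%, 4.16% and 5.59% held a transcript. Germ and matrix-like cells, at 116, 121, 44.8 and 49.3 CPM with shares of 17.3%, 16%, 6.10% and 8.65%, lay above these 2 types in every library. T cell-like cells, which should lack Krt79 as well, held 213, 132, 260 and 90.1 CPM, more than germ and matrix-like cells, while 19.4%, 10.5%, 4.44% and 5.88% of them held a transcript after thinning. The level was lower in both KO libraries in melanocyte-like and Langerhans or macrophage-like cells but not in T cell-like cells. The share of T cell-like cells with a transcript was lower in both KO libraries, however. The part of such transcripts in the genotype differences of cells with little Krt79 was not tested.

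Cd34 at P0 was held by Langerhans or macrophage-like cells, at 32.0, 35.3, 48.6 and 61.6 CPM. In follicle-like cells it was at 0.175, 0.145, 0.169 and 0.218 CPM, or 5, 5, 9 and 11 UMIs. After thinning, 1, 1, 2 and 2 follicle-like cells per library held a transcript. In melanocyte-like cells the counts were 0 of 591, 0 of 692, 0 of 577 and 0 of 590 cells, which allow shares of up to 0.508%, 0.434%, 0.520% and 0.508%. At this depth no more than scattered follicle-like cells held Cd34 at P0.

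The single Chromium v1 library had the same leading named classes as the tested WT libraries of P0 for Lgr5, Lgr6, Lrig1 and Krt79, but not for Plet1. Its outer root sheath-like cells held 56.9 CPM of Lgr5, its inner root sheath-like cells 7064 CPM of Krt79 and its sebaceous-like cells 4713 CPM. Plet1 was at 112 CPM in its IFE basal-like and 67.9 CPM in its outer root sheath-like cells, an order that the WT libraries of the later chemistry did not show. This library has no replicate, was clustered on its own and differs in reagents, so no comparison was made.

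Across the follicle as a whole, Krt79, Plet1, Lgr6 and Lgr5 were lower in KO than in WT at P0, while Lrig1 and Cd34 did not pass the test. The comparison asks which of these markers differ in level in mice without Grhl3. Of all genes 36.6% passed in these cells, 1827 upward and 2149 downward, so the 4 of 6 members are read against a high background. The plot of genotype differences at P0 shows the members in 5 groups of cells.

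**Figure D3:**
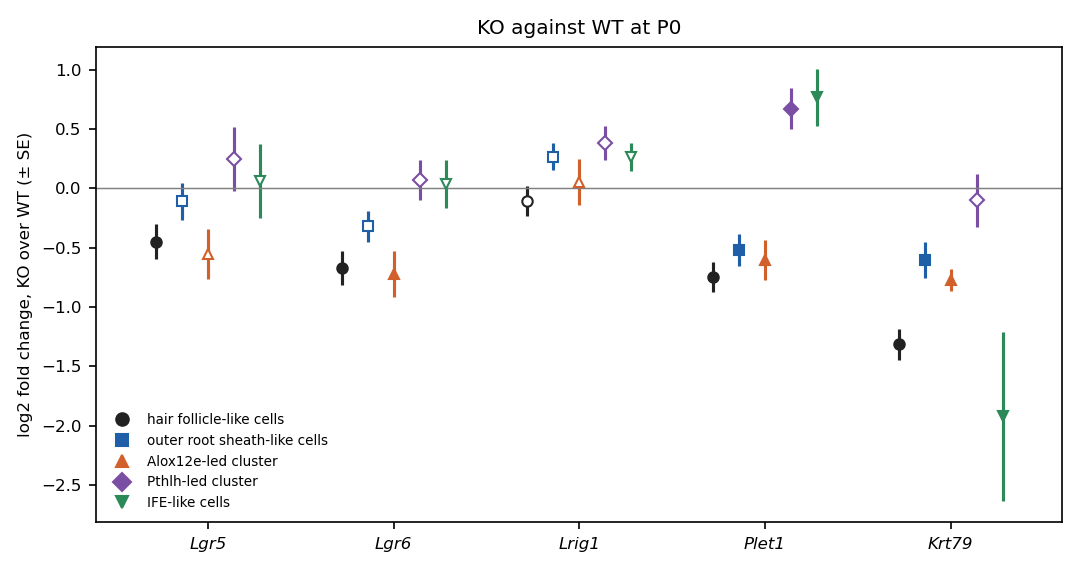
Log2 fold change of KO over WT at P0 (points, with SE as bars) for 5 members in hair follicle-like cells, outer root sheath-like cells, the Alox12e-led and Pthlh-led clusters and IFE-like cells, from 2 libraries per genotype. Filled symbols passed an adjusted p of 0.05. Plet1 lies below 0 in the 3 follicle groups and above 0 in the Pthlh-led cluster and IFE-like cells.

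Krt79 was at 777, 951, 296 and 373 CPM in hair follicle-like cells of P0, and the genotypes did not overlap. The log2 fold change was -1.32 ± 0.13 (adjusted p = 3.67e-06), or 2.49-fold lower in KO. It passed under every alternative tried for this value. The Alox12e-led cluster, where the gene is highest, made up 7.24% and 8.05% of WT and 4.52% and 5.74% of KO follicle-like cells. Without that cluster Krt79 was at 203, 229, 100 and 109 CPM and its log2 fold change was -0.96 ± 0.11 (adjusted p = 1.15e-05). Within the cluster it was -0.77 ± 0.09 (adjusted p = 7.32e-04), where Krt79, Plet1 and Lgr6 passed and 17.5% of all genes did.

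Plet1 was at 46.8, 48.6, 28.0 and 26.8 CPM in the same cells, a log2 fold change of -0.75 ± 0.13 (adjusted p = 3.01e-04). The values of each genotype were close together and did not overlap. Lgr6, at 117, 106, 75.7 and 59.0 CPM, had a log2 fold change of -0.67 ± 0.14 (adjusted p = 0.00149). With the summed UMIs of all libraries reduced to the smallest, neither passed (adjusted p = 0.594 for Plet1 and 0.0667 for Lgr6), on sums that then held far fewer UMIs.

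Lgr5 was at 52.8, 52.9, 42.9 and 31.4 CPM, and its log2 fold change of -0.45 ± 0.15 was the smallest that passed (adjusted p = 0.0245). KO replicate 2 decided it, since without that library the value was -0.22 (adjusted p = 0.369). It was also lost without WT replicate 1 (0.0842), with DESeq2 (0.0509) and with the P0 libraries fitted alone (0.0914). In outer root sheath-like cells, where Lgr5 is highest, it was -0.11 ± 0.16 (adjusted p = 0.637, 95% interval -0.47 to 0.25). Which cells fell in this class depended on the integration, as given below. Within germ and matrix-like and within inner root sheath-like cells Lgr5 was lower in both KO libraries, by the levels given above. Inner root sheath-like cells, which hold little Lgr5, made up 25.6% and 23.6% of WT and 31.2% and 34.2% of KO follicle-like cells. The part of this shift in the pooled value was not tested.

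Lrig1 in follicle-like cells was at 59.8, 54.3, 56.6 and 45.3 CPM, and its groups overlapped (log2 fold change -0.11 ± 0.13, adjusted p = 0.544, 95% interval -0.37 to 0.16). In inner root sheath-like cells alone, where it was at 24.3, 23.6, 16.9 and 13.9 CPM, it passed (-0.49, adjusted p = 0.0408). In outer root sheath-like cells it was higher in both KO libraries and did not pass (0.27 ± 0.11, adjusted p = 0.117). Cd34, on 5 to 11 UMIs a library, had a log2 fold change of 0.32 ± 0.63 (adjusted p = 0.724).

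In outer root sheath-like cells 2 of the 5 members tested passed, Plet1 with a log2 fold change of -0.52 ± 0.13 (adjusted p = 0.0203) and Krt79 with -0.61 ± 0.15 (adjusted p = 0.0193), while 27.0% of all genes did. Neither survived the removal of KO replicate 1 (adjusted p = 0.115 and 0.135), and Plet1 was also lost without WT replicate 2 (0.0552). With classes drawn without integration across libraries both changed sign, to 0.021 for Plet1 (adjusted p = 0.935) and 0.67 for Krt79 (adjusted p = 0.0692). The class then held 2022, 1691, 901 and 672 cells, against 1285, 1140, 1626 and 1287 with integration. With integration, Lgr6 was -0.32 ± 0.13 (adjusted p = 0.098). In the Alox12e-led cluster, Lgr6 (-0.72 ± 0.19, adjusted p = 0.0265) and Plet1 (-0.61 ± 0.17, adjusted p = 0.0314) were lost with DESeq2 (0.0614 and 0.119) and without KO replicate 2 (0.191 and 0.233). Lgr6 there was also lost without WT replicate 1 (0.13) and Plet1 without WT replicate 2 (0.057).

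In IFE-like cells of P0, Plet1 went the other way. It was at 35.1, 39.8, 80.3 and 59.1 CPM, a log2 fold change of 0.77 ± 0.24 (adjusted p = 0.0229), and the genotypes did not overlap. The value was 0.66 without WT replicate 1 (adjusted p = 0.108) and 0.51 without KO replicate 1 (0.163). IFE basal-like cells, in which Plet1 is higher than in IFE differentiated-like cells, were 45.3% and 38.6% of IFE-like cells in WT and 81.4% and 69.7% in KO. In IFE basal-like cells alone, with 40.8, 53.0, 85.5 and 70.8 CPM, the value was 0.74 (adjusted p = 0.0184), close to that over all IFE-like cells. In IFE differentiated-like cells alone it was 0.42 (adjusted p = 0.342), with 29.1, 30.7, 55.9 and 29.8 CPM. Of the 6 members, Plet1 and Krt79 passed in IFE-like cells, against 42.0% of all genes.

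Krt79 in IFE-like cells was at 204, 532, 52.9 and 166 CPM, a log2 fold change of -1.92 ± 0.71 (adjusted p = 0.0482). The genotypes did not overlap, but the libraries of each differed widely. The call was lost without WT replicate 2 (-1.04, adjusted p = 0.318), without KO replicate 1 (-1.31, 0.219), with DESeq2 (0.202), with RLE normalization (0.0512) and with sex as a term (0.0589). IFE differentiated-like cells, which held more Krt79, were 54.7% and 61.4% of IFE-like cells in WT and 18.6% and 30.3% in KO. In IFE basal-like cells alone, at 84.0, 148, 32.0 and 78.0 CPM, the value was -1.15 (adjusted p = 0.0374), and in differentiated-like cells alone, at 331, 797, 150 and 385 CPM, it was -1.12 (0.191). T cell-like cells, which should lack Krt79, held 213, 132, 260 and 90.1 CPM, more than IFE basal-like cells except in WT replicate 2. Melanocyte-like cells held less than IFE basal-like cells in every library. The part of such transcripts in these values was not tested. Lgr6 was at 47.9, 31.8, 44.6 and 44.8 CPM and did not pass (0.04 ± 0.20, adjusted p = 0.905). In IFE basal-like cells alone, at 85.9, 67.3, 50.9 and 60.0 CPM, it was lower in KO (-0.48, adjusted p = 0.0485), and differentiated-like cells held 6.89 to 15.2 CPM. Lrig1, at 35.4, 34.0, 47.2 and 44.0 CPM, was higher in both KO libraries and did not pass (0.26 ± 0.12, adjusted p = 0.0888). Lgr5 (0.063, adjusted p = 0.895) and Cd34 (0.13, 0.945) did not pass either.

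The difference between the classes was then tested in 1 fit over the IFE-like and follicle-like sums of the same 4 libraries, with the library as a block, where 24.6% of all genes passed. The KO effect on Plet1 was higher in IFE-like than in follicle-like cells by 1.5 ± 0.16 on the log2 scale (adjusted p = 3.36e-04). That on Lgr6 was higher by 0.72 ± 0.16 (adjusted p = 0.012, and 0.111 without WT replicate 2). The IFE-like sums held more basal-like cells in KO, where Lgr6 is higher, and in basal-like cells alone its KO effect was -0.48 against -0.67 in the follicle. The difference between these was not tested. Lrig1 (0.36, adjusted p = 0.0731), Lgr5 (0.46, 0.151) and Krt79 (-0.64, 0.282) did not pass, and Cd34 was too low to be tested. For Krt79 the difference passed without KO replicate 2 (-1.29, adjusted p = 0.00561).

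The Pthlh-led cluster resembled IFE-like cells in the direction of Plet1. There Plet1 was higher in KO (0.67 ± 0.17, adjusted p = 0.022) and Krt79 differed by -0.10 ± 0.23 (adjusted p = 0.806, 95% interval -0.59 to 0.39). Plet1 was the 1 member of 5 that rose in this cluster, and none fell, where 694 of 9610 genes (7.22%) rose and 704 fell. It was lost with DESeq2 (0.0637), without WT replicate 1 (0.153) and without KO replicate 1 (0.0563). Lrig1, at 128, 139, 155 and 175 CPM, did not pass (0.38 ± 0.14, adjusted p = 0.0903).

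Over the 22 epithelial clusters of P0, both KO libraries lay below both WT libraries for Krt79 in 17, and above them in none. For Plet1 they lay below in 12 and above in 5, for Lgr6 below in 15 and above in 1, and for Lgr5 below in 12 and above in none. Lrig1 was below in 7 and above in 4, and Cd34 below in 3 and above in 4. These clusters share the same 4 libraries, so the counts are a description and not independent evidence. No share over all genes is given beside them. Krt79 was also lower in both KO libraries in melanocyte-like cells, which should lack it, by the levels given above. The plot of Krt79 by cluster shows its values in each.

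**Figure D4:**
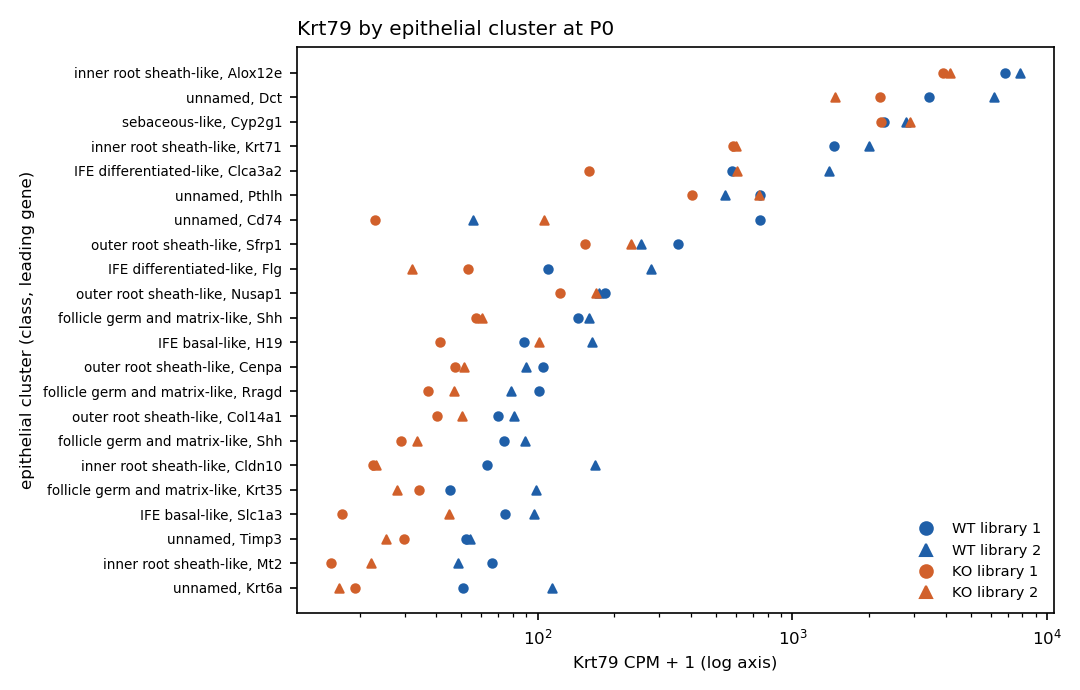
Krt79 (CPM + 1, log axis) in each of the 22 epithelial clusters of P0, named by class and leading gene and ordered by level, for 2 WT (blue) and 2 KO (orange) libraries. The KO points lie left of the WT points in 17 clusters, and among the exceptions are the sebaceous-like cluster, with 2278 and 2782 CPM in WT and 2219 and 2892 CPM in KO, and the Pthlh-led cluster.

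Before birth no member passed between KO and WT in follicle-like, IFE-like or fibroblast-like cells. In follicle-like cells of E14.5 no gene at all passed with edgeR, while 613 of 10854 had an unadjusted p under 0.05 and DESeq2 called 3, so that 0% is the background there. Plet1 at that age was at 10.7, 5.52, 0 and 1.92 CPM, on few UMIs (adjusted p = 0.863), and the other 5 members had adjusted p from 0.956 to 0.975. At E16.5 0.138% of all genes passed. The members with an unadjusted p under 0.05 in follicle-like cells of E16.5 were Krt79, at 69.7, 80.4, 50.6 and 55.3 CPM (-0.55 ± 0.17, adjusted p = 0.579), and Plet1, at 21.3, 20.8, 16.9 and 12.6 CPM (-0.58 ± 0.23, adjusted p = 0.917). For both the KO libraries lay below the WT libraries, the side on which they were found at P0. Lgr5 at E16.5 was at 24.0, 22.1, 22.5 and 26.8 CPM (0.05 ± 0.23, 95% interval -0.44 to 0.55). Cd34, Lgr6 and Lrig1 had adjusted p from 0.994 to 1.

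In IFE-like cells 0.648% of all genes passed at E14.5 and 1.91% at E16.5, and again no member. Lrig1 came nearest at E16.5, with 13.9, 12.4, 19.6 and 21.4 CPM (0.58 ± 0.14, adjusted p = 0.0664). The other members had adjusted p from 0.354 to 0.985 there, and all 6 from 0.484 to 0.938 at E14.5. In IFE basal-like cells alone, Krt79 was higher in KO at E16.5 (2.00, adjusted p = 0.00176). Over all IFE-like cells of that age it was 0.45 ± 0.98 (adjusted p = 0.898). Neither the UMIs behind the basal-like value nor the share of all genes that passed in that fit is given here. In fibroblast-like cells, where 2.76% and 1.36% of genes passed at the 2 ages, Cd34 was at 114, 167, 127 and 129 CPM at E14.5 and 194, 217, 150 and 180 CPM at E16.5. Its log2 fold changes were -0.14 ± 0.13 (adjusted p = 0.648) and -0.31 ± 0.13 (adjusted p = 0.472). Plet1 was too low to be tested, and the other 4 had adjusted p from 0.225 to 0.636 at E14.5 and from 0.809 to 0.913 at E16.5.

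The KO effect at P0 was set against that at E16.5 by an interaction term. In follicle-like cells Krt79 passed, with a difference of -0.77 ± 0.21 (adjusted p = 0.027), and 11.3% of all genes did. It was lost without any 1 of the 4 libraries of E16.5 (adjusted p from 0.0526 to 0.186) or without KO replicate 1 of P0 (0.0945). Without the Alox12e-led cluster it was -0.41 ± 0.18 (adjusted p = 0.161). In outer root sheath-like cells alone the difference was 0.018 (adjusted p = 0.98) and in germ and matrix-like cells alone 0.36 (0.878). Lgr6 (-0.60 ± 0.23, adjusted p = 0.108), Lgr5 (-0.50 ± 0.28, 0.266), Plet1 (-0.17 ± 0.27, 0.733), Lrig1 (-0.33, 0.362) and Cd34 (1.49, 0.298) did not pass. In IFE-like cells 17.9% of genes passed and no member did, with the lowest adjusted p, 0.2, for Krt79. In IFE basal-like cells alone Krt79 (-3.12, adjusted p = 0.01) and Lrig1 (-0.83, adjusted p = 0.0305) passed. The number of all genes that passed in that fit is given below, where the results are set against the processing, but not the number tested. No share over all genes therefore stands beside these calls, and they are not read as results about the members.

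Lists of related genes were read beside the members by counts, as descriptions. Most of these progenitor and upper follicle genes were also among the markers from which clusters were named. Of 8 follicle progenitor transcription factors, 5 fell in KO follicle-like cells at P0 and none rose, with a median log2 fold change of -0.489 against -0.0522 over all genes. Of all genes in that comparison 36.6% passed, and 2149 of the 10854 genes tested fell. Foxc1, a forkhead factor of follicle stem cells, fell by 1.34 on the log2 scale (SE 0.19, adjusted p = 9.22e-05). Runx1 fell by 1.03 (SE 0.13, adjusted p = 1.89e-05) and Sox9, which is needed for the outer root sheath, by 0.82 (SE 0.15, adjusted p = 3.99e-04). Nfatc1 and Lhx2 changed by -0.53 and -0.45. In KO IFE-like cells Gli2 (0.87) and Tcf7l1 (1.0) of this list rose and Foxc1 (-1.01) fell, with a median of 0.125 against -0.0144, where 42.0% of all genes passed.

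Of 6 genes of the upper follicle and sebaceous duct, 4 could be tested in follicle-like cells, and Gata6 (-2.39), Prdm1 (-0.87) and Cst6 (-0.58) fell in KO at P0, with a median of -0.725, beside the same 36.6% over all genes. Gata6 and Prdm1 are transcription factors of the sebaceous duct and gland. Gata6 also fell in outer root sheath-like cells and in the Alox12e-led and Pthlh-led clusters. In IFE-like cells Teddm3 (-3.09), Cst6 (-2.95) and Defb6 (-2.95) fell and Krt17 (1.15), a keratin of follicles and of stressed epidermis, rose, with a median of -2.08 over the 6 against -0.0144 over all genes, where 42.0% of all genes passed.

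Among the partners of the LGR receptors, Axin2, a negative feedback target of Wnt signalling, was the 1 gene of 5 tested that changed in follicle-like cells (-1.44 ± 0.13, adjusted p = 1.13e-06; median of the list -0.252). It fell as well in IFE-like cells (-1.50 ± 0.16, adjusted p = 3.25e-05), where the median over 6 genes was -0.0299. Lgr4, Rnf43, Znrf3 and Rspo1 did not pass in follicle-like cells. Of a list of LRIG paralogues, ERBB receptors and Met, the receptor of hepatocyte growth factor, 4 of 6 genes fell in follicle-like cells, Met (-0.79), Erbb3 (-0.78), Egfr (-0.51) and Lrig3 (-0.45), with a median of -0.488, where 36.6% of all genes passed. In IFE-like cells Erbb3 (-1.27), Erbb2 (-0.63), Lrig2 (-0.48) and Egfr (-0.43) fell, with a median of -0.452, where 42.0% of all genes passed. Podxl2, the 1 sialomucin of the CD34 family that could be tested in these cells, fell in follicle-like (-0.44) and rose in IFE-like cells (0.76).

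Over age, 6.58% of all genes passed at the first step and 52.0% at the second in WT follicle-like cells, and the counts of the same lists are read against these shares. Between E14.5 and E16.5 5 of the 8 progenitor factors rose, Lhx2 (5.71 ± 0.26), Nfatc1 (5.10 ± 0.84), Tbx1 (3.62), Sox9 (2.02) and Runx1 (1.86), with a median of 2.82 against 0.0489 over all genes. From E16.5 to P0 Foxc1 (2.28), Tcf7l1 (1.42), Runx1 (1.20), Sox9 (0.96) and Lhx2 (0.48) rose and Tbx1 fell (-1.19), with a median of 0.718 against 0.0309. The upper follicle genes Krt17 (1.55) and Cst6 (2.45) rose at the first step and Gata6 (1.83) and Cst6 (0.69) at the second, with medians of 2.00 and 0.34. Lgr4 and Znrf3 rose at the first step (1.35 and 1.08) and fell at the second (-0.62 and -0.49), when Rspo1 (-2.58) fell and Axin2 (1.86) and Rnf43 (1.19) rose. As for Cd34, dermis was in the samples of E16.5 and not in those of P0, and the part of dermal transcripts in the Rspo1 fall was not tested. Of the 6 genes of the LRIG, ERBB and Met list Lrig3 (2.29) rose at the first step and Erbb3 (2.03), Egfr (1.71), Lrig3 (1.26) and Erbb2 (0.82) at the second, and Podxl2 passed at neither. At the second step 2923 of 10854 genes rose and 2724 fell, and counts of risen genes such as 5 of 8 or 4 of 6 are read beside these.

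In WT IFE-like cells, where 18.8% and 57.6% of all genes passed at these steps, 2 progenitor factors rose (Gli2 by 1.40, and Lhx2 from no UMI in either WT library) and Tcf7l1 (-0.70) fell between E14.5 and E16.5. From E16.5 to P0 7 of the 8 rose, Foxc1 (4.23), Lhx2 (2.77), Runx1 (2.63), Nfatc1 (2.30), Tbx1 (2.17), Sox9 (1.52) and Tcf7l1 (0.60). Of the 6 upper follicle genes Cst6 (3.54), Prdm1 (2.98), Teddm3 (1.66) and Krt17 (1.49) rose at the first step. At the second Gata6 (3.77) and Defb6, from no UMI in either WT library, rose and Prdm1 (-1.66) and Teddm3 (-1.13) fell. Among the LGR partners Znrf3 (1.05) and Axin2 (0.59) rose first, and then Axin2 (1.63) and Rnf43 (1.45) rose while Rspo1 (-2.85) and Rspo3 (-2.71) fell. The part of dermal transcripts in the Rspo1 and Rspo3 falls was not tested here either. Egfr (-0.69), Erbb2 (-0.45) and Podxl2 (-1.07) fell at the first step. At the second Erbb3 (2.21), Lrig3 (1.60), Egfr (0.86), Lrig2 (0.67) and Erbb2 (0.62) rose.

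Cells with transcripts of 2 members were counted in the epithelial classes of P0, after thinning each cell to 3000 UMIs. The expected number is what the shares of each gene would give within class and library, so that it allows for classes in which both are high. It does not allow for clusters within a class that differ in both, and the unnamed epithelial clusters, among them the Pthlh-led 1, count as 1 class. Plet1 and Krt79 were found together in 142, 159, 95 and 82 cells, 1.16, 1.24, 1.44 and 1.40 times the expected number. Lrig1 and Krt79 were found together in 144, 130, 108 and 108 cells, or 1.10, 1.21, 1.29 and 1.45 times the expectation. Of the 15 pairs, 5 exceeded 1 in all 4 libraries, these 2 and Lrig1 with Plet1, Lgr6 with Lrig1 and Lgr6 with Krt79. The plot of cells with 2 members shows the 10 pairs without Cd34.

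**Figure D5:**
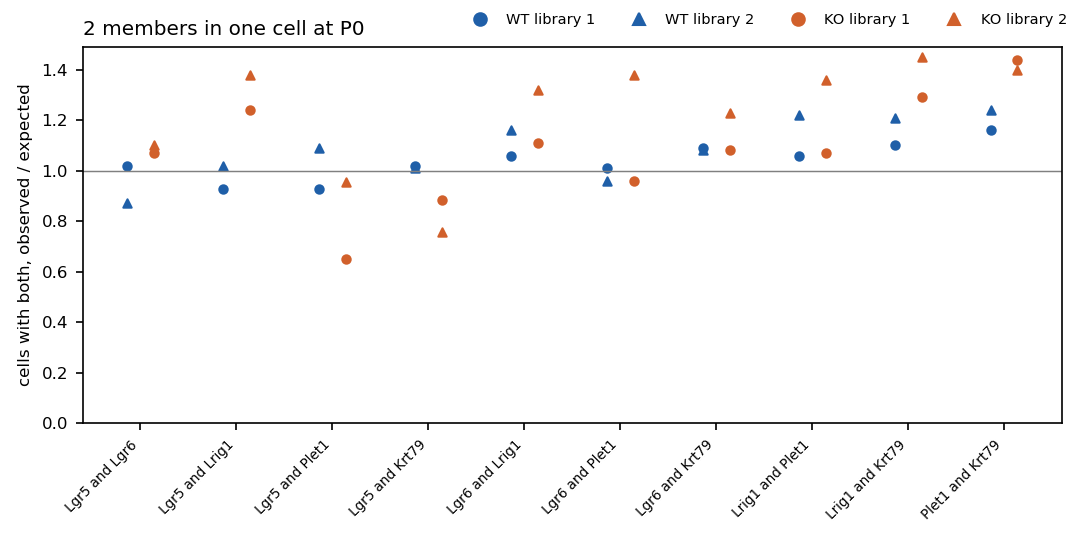
Ratio of observed to expected P0 cells with transcripts of 2 members, for the 10 pairs without Cd34, with the expectation taken within class and library. Points are the 2 WT (blue) and 2 KO (orange) libraries. Plet1 with Krt79 lies at 1.16 to 1.44, and Lgr5 with Krt79 at 0.758 to 1.02.

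Lgr5 had no such excess with the upper follicle genes. With Krt79 it was found in 88, 80, 48 and 36 cells (1.02, 1.01, 0.882 and 0.758 times the expectation) and with Plet1 in 55, 68, 29 and 29 cells (0.929, 1.09, 0.650 and 0.956 times). With Lrig1 the ratios were 0.929, 1.02, 1.24 and 1.38, higher in both KO than in both WT libraries, a difference that was not tested. Pairs with Cd34 rested on 0 or 1 cell with both. The ratios are descriptions of these libraries, since cells of a library are not replicates and some cells may be doublets. With likely doublets removed the number of pairs above 1 in all 4 libraries was 5, and at 2000 UMIs it was 4. Without thinning it was 10 of the 15, so the count and the lack of an excess for Lgr5 hold for thinned cells only.

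Over 134 profiles of a class in a library with at least 50 cells, the member pair with the highest Pearson correlation of log2 levels was Lgr6 and Plet1 (0.78) and the lowest was Cd34 and Plet1 (-0.60). The profiles share libraries and ages, so these are descriptions with no test. Among 12560 genes, those most like Lgr5 were Prss35 (0.83), the Wnt receptor Fzd7 (0.82) and the homeobox gene Hoxc13 (0.79). For Lgr6 they included the transcription factor Ovol2 (0.96) and the hyaluronan synthase Has3 (0.94). Lrig1 was most like the Wnt co-receptor Ryk (0.82), Rgma (0.81) and Dzip1l (0.80), and Cd34 most like Itga5 (0.84), Ramp2 (0.83) and Hecw2 (0.80). Plet1 was most like Klrg2 (0.90), Fxyd3 (0.90) and the envelope protein gene Ppl (0.89). Krt79 was most like the arginase gene Arg2 (0.90), Hopx (0.87) and the vitamin D receptor gene Vdr (0.84).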

How the data were processed

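UMI counts of 13 droplet libraries of mouse skin were analysed as the authors deposited them, as Cell Ranger 1.3.1 count matrices on mm10 per the labels. Cells with 600 to 4800 detected genes (E14.5, E16.5) or 900 to 7700 (P0) and at most 10% mitochondrial UMIs were kept, as in the methods. Each age was clustered in Seurat 5.3.0 with integration across libraries (3000 variable genes without the 6 members, 30 components, resolutions 1.0 and 0.8). A cluster was named where at least 3 markers of a class were detected with a score of at least 0.5 and a margin of 0.15. Classes with under 20 cells in a library were not tested. Doublets were kept in the main results and removed, at 0.8% per 1000 cells, in an alternative. Counts were summed per class and library and tested with edgeR 4.0.16 (quasi-likelihood test, TMM, Benjamini-Hochberg adjustment over all genes, threshold 0.05, R 4.3.3) with all ages in 1 fit. Intervals at 95% of a log2 fold change use the SE and the degrees of freedom of the fit. For shares, cells were thinned to 3000 UMIs and shallower ones left out, and intervals and floors cover counting error only. Likeness used profiles with at least 50 cells and genes with at least 10 CPM in 3 of them. The genes most like each member are named, except 1 that is not reported here. DESeq2 1.42.0 and other alternatives were run. The rule for named genes was all 6 members in each comparison and, from the lists, genes past the threshold. List calls are given for KO at P0 and for age in follicle-like and IFE-like cells, and those of other comparisons are not printed. Clusters led by Alox12e and Pthlh, and class interactions, were tested after their values were seen. Members and gene lists were chosen with earlier results of these data known. On simulated counts for KO against WT at P0 in hair follicle-like cells, 96 of 100 genes changed 2-fold and 100 of 100 changed 4-fold were recovered, and 16 unchanged genes were called, over 10451 genes. For the class interaction, 48 and 99 of 100 were recovered and 7 unchanged genes were called, over 13399 genes. Its simulated counts had the same dispersion for every gene and no library or class differences beside depth, unlike the real sums.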

Additional observations from a re-analysis of the deposited data

Results flagged for a closer look

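The KO effects on 3 members differed between groups of cells or ages by a test of the difference itself (edgeR quasi-likelihood test, 2 libraries per genotype). For Krt79 in hair follicle-like cells the KO effect at P0 lay -0.77 on the log2 scale from that at E16.5 (adjusted p = 0.027). That call was lost without any 1 of the 4 libraries of E16.5 (0.0526 to 0.186) or KO replicate 1 of P0 (0.0945), and without the Alox12e-led cluster, while a Krt79-rich cluster of E16.5 was not in the pool (-0.41, adjusted p = 0.161). The value was 0.018 in outer root sheath-like and 0.36 in germ and matrix-like cells alone. For Plet1 at P0 the KO effect was 1.5 higher in IFE-like than in hair follicle-like cells (adjusted p = 3.36e-04), with -0.75 in the follicle and 0.77 in the IFE. For Lgr6 it was 0.72 higher (adjusted p = 0.012, and 0.111 without WT replicate 2), with -0.67 in the follicle and 0.04 over all IFE-like cells. In IFE basal-like cells alone Lgr6 was -0.48 (adjusted p = 0.0485). Basal-like cells, where Lgr6 is higher, were 45.3% and 38.6% of IFE-like cells in WT and 81.4% and 69.7% in KO. The level within basal-like cells and the make-up of the IFE-like cells thus both differed. The part of each in the 0.04 was not tested.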

How the results depend on the processing

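Depth limits Cd34 in the follicle at P0, all members at E14.5, and every class with few cells. Among single members, the alternatives chosen at the outset left 1268 values on the same side, moved 66, took 61 below the threshold and 17 above it, and reversed 2. Those added after seeing the data left 108, moved 15, took 7 below and 7 above, and reversed 4. The cause of a change was not tested unless stated. In reversals, the Krt79 difference of P0 from E16.5 in hair follicle-like cells was 0.018 in outer root sheath-like and 0.36 in germ and matrix-like cells alone. Lgr6 in KO IFE-like cells at P0 was -0.48 in basal-like cells alone, and Plet1 in WT IFE-like cells at E16.5 against E14.5 was -0.40 in differentiated-like cells alone. Without integration, Plet1 and Krt79 in outer root sheath-like cells were 0.021 and 0.67.

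Counts of genes past the threshold follow. In hair follicle-like cells, KO against WT at E14.5 (0 genes) gave 3 with DESeq2, 15 with no filter, 2 with those libraries alone, 1 with equal UMIs and 2 in germ and matrix-like cells alone. At E16.5 (15) it gave 28, 87, 35, 8 and 57, and 25 in outer root sheath-like cells alone. At P0 (3976) it gave 366 with equal UMIs and 2565 in germ and matrix-like cells. Equal UMIs keep fewer counts, and gave 343 for E16.5 against E14.5 (714), 1142 for P0 against E16.5 (5647), and 126 for the interaction (1224). Sex as a term gave 2397 for P0 against E16.5, and germ and matrix-like cells 484 for the interaction.

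In IFE-like cells at E14.5 (82) DESeq2 gave 141, no filter 448, those libraries alone 579, the replicate block 25, sex 32, equal UMIs 50, basal-like cells 9 and differentiated-like cells 1261. At E16.5 (242) no filter gave 824, sex 114 and differentiated-like cells 642. At P0 (5314) the libraries alone gave 3537, equal UMIs 3451, basal-like 3311 and differentiated-like cells 1412. Equal UMIs gave 1505 for E16.5 against E14.5 (2382) and sex 4347 for P0 against E16.5 (7294). The interaction (2262) gave 1437, 1404, 1360 and 136 with the libraries alone, equal UMIs, basal-like and differentiated-like cells. In fibroblast-like cells at E14.5 (398) no filter gave 1366, the libraries alone 132, the block 205, sex 206 and no integration 786. At E16.5 (196) no filter gave 766 and the libraries alone 358. Outer root sheath-like cells (3332) gave 1123 with equal UMIs, and DESeq2 gave 924 for the Alox12e-led (1789) and 535 for the Pthlh-led cluster (1398). Without thinning, 10 pairs of members exceeded 1 in all 4 libraries.

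Leaving out 1 library gave 0 to 0, 11 to 17 and 2307 to 3797 genes for KO in hair follicle-like cells at the 3 ages, the lowest at P0 without KO replicate 2. It gave 235 to 469 and 3965 to 5317 for the age steps, and 539 to 1593 for the interaction. In IFE-like cells it gave 6 to 16, 33 to 144 and 4248 to 4755, then 940 to 1357, 5540 to 6601 and 1188 to 2335. In fibroblast-like cells it gave 103 to 401, 43 to 157 and 3468 to 4915. It gave 1438 to 3361 in outer root sheath-like cells and 429 to 2023 in the Alox12e-led cluster, both lowest without KO replicate 2. It gave 493 to 1250 in the Pthlh-led cluster, lowest without WT replicate 1, and 1212 to 3198 for the difference of classes (3361), lowest without WT replicate 2.

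Replicate numbers only name samples. Deviations of same-numbered libraries correlated at 0.0304, -0.0356 and -0.0368 in hair follicle-like, -0.00949, -0.179 and 0.132 in IFE-like and -0.0313 and -0.0958 in fibroblast-like cells. With the replicate number as a block, KO against WT called 0, 22 and 4015 genes in hair follicle-like and 25, 179 and 4993 in IFE-like cells at the 3 ages, and Krt79 passed in the IFE interaction (-2.47, adjusted p = 0.0405).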

Other observations

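Plet1 in Langerhans or macrophage-like cells of P0 was at 17.6 and 30 CPM in WT and 3.65 and 1.11 CPM in KO, on 38, 108, 12 and 3 UMIs, and at 18.8 CPM in the Chromium v1 WT library. Melanocyte-like cells of the same 4 libraries held 2.90, 3.39, 1.52 and 0.664 CPM, and T cell-like cells 6.81, 16.7, 6.39 and 5.30 CPM, on 3, 14, 8 and 7 UMIs. The 17.6 CPM of WT replicate 1 was thus close to the T cell-like level of WT replicate 2. This gene and class were singled out after their values were seen, and the difference was not tested.

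Lrig1 in the outer root sheath-like cluster led by Sfrp1 was at 96.6 and 103 CPM in WT and 150 and 145 CPM in KO at P0. Lgr5 in the same cluster was at 117, 114, 152 and 117 CPM. These values were also chosen after they were seen and were not tested.

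In the Chromium v1 library, hair follicle-like cells held 28.7 CPM of Lgr5, 70.9 CPM of Lgr6, 48.4 CPM of Lrig1, 63.8 CPM of Plet1 and 1083 CPM of Krt79, with 75.9 CPM of Krt79 in its melanocyte-like cells.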
